A study of Drosophila melanogaster
Drosophila virilis with 26 samples.

Results

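The Clontech and SMART-seq2 protocols, which turn 1 ng of total RNA into a sequencing library, were set against each other, gene by gene, on the Drosophila melanogaster transcripts of the same embryo RNA. The libraries were chosen by protocol alone: the 4 Clontech and the 4 full-volume SMART-seq2 libraries, 8 of the 26 libraries of the series, in the table of counts that the authors had sampled to equal depth. The 13793 D. melanogaster genes of the 28126 genes in that table were used, and each library was scaled to its own total on these genes, so that a level is given in counts per 1000000 D. melanogaster reads (CPM). The remaining libraries, made with TruSeq from 100 ng of RNA, with TotalScript, or with SMART-seq2 at reduced tagmentation volumes, stayed out of the main test and serve for comparison of levels and as an alternative fit.

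The RNA came from pools of whole embryos labelled 0 to 4 h, grown under standard conditions and extracted with TRIzol. Total RNA of D. melanogaster was mixed with total RNA of the related species Drosophila virilis, which made up 0, 5, 10 or 20% of the RNA of the 4 libraries of each protocol. Strain, sex and a narrower age are not given in the sources used here. For D. melanogaster genes the 4 mixtures of a protocol served as technical repeats, since no protocol had a repeated mixture. All 8 libraries drew on the same RNA and were sequenced together, so the p-values measure the spread between libraries and not between embryos. The question was how far both low-input chemistries give the same relative levels for the same transcripts.

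In the SMART-seq2 method a primer of thymidines starts reverse transcription at the poly(A) tail, the enzyme adds a handle when it reaches the end of the RNA, and the full-length cDNA is amplified by PCR before a transposase cuts it and adds adapters. A transcript has to be copied from end to end, and its whole cDNA has to pass through the PCR, to be well represented. For the Clontech libraries the methods describe another order of steps, with mRNA selection, fragmentation and cDNA synthesis by TruSeq reagents first, and the Low Input Library Prep Kit then adding adapters to the short cDNA. The embryo loads its egg with maternal mRNA and begins to transcribe its own genome only after the first nuclear cycles, so that RNA of this age is expected to be rich in maternal transcripts.

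The RNA carried the maternal transcripts that its label implies. All 15 maternal marker genes passed the minimum for testing, and their summed level lay between 10170 and 13661 CPM in the 8 libraries. Of 17 early zygotic markers, 6 passed. The summed level of the 17 was 233 to 419, of which hb alone had 148 to 312. How much of these levels was maternal mRNA was not tested. Of 18 markers of late embryonic cuticle and muscle none passed and 10 had no read in any of the 8 libraries, and the same held for 13 of 15 markers of ovary follicle cells and for 10 of 12 of fat body and gut. Of 9 neuronal markers 1 passed, Appl, the fly homologue of the amyloid precursor protein, with 5.80 to 6.97 CPM in the Clontech libraries and 0 to 2.08 in the SMART-seq2 libraries. The D. melanogaster totals were similar, at 1819765 to 2008297 reads in the Clontech libraries and 1747575 to 1919250 in the SMART-seq2 libraries.

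The 0% SMART-seq2 library stood furthest from the others of its protocol. Over 5315 well-counted genes, 9.56% lay at least 2-fold from the median of the other 3 libraries in the 0% SMART-seq2 library, with 422 genes below and 86 above, against 0.489 to 0.659% in the other SMART-seq2 libraries. The genes furthest below there were blue, Sfmbt and plx, and the furthest above were corto, Atg12 and Fib, named here after their values were seen. In the Clontech set the 0% and 20% libraries had 1.35 and 1.03% of genes that far off, and the 5% and 10% libraries 0.245 and 0.207%. The variation between libraries beyond counting error, as a coefficient of variation, was 16.7% for Clontech and 23.6% for SMART-seq2. Without the 0% SMART-seq2 library it was 12.4% for SMART-seq2, and without the 20% Clontech library it was 13.6% for Clontech. Some results that rest on these libraries are given with and without them.

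Both protocols saw nearly the same set of genes. A Clontech library had 6789 ± 215 genes with at least 1 read and a SMART-seq2 library 6751 ± 51.6 (SD, n = 4 each, exact two-sided permutation test, p = 0.714, adjusted p = 1 over 6 library measures). With at least 10 reads the numbers were 6022 ± 13.9 and 6022 ± 22.7 (p = 1, exact permutation test, n = 4 each). Over the 8 libraries 5761 genes had at least 10 reads in every one, 5830 had no read in any, and no gene had at least 10 reads in all 4 libraries of a protocol and 0 in all 4 of the other. At a softer limit, 14 genes had at least 10 reads in all 4 Clontech libraries and fewer in all 4 SMART-seq2 libraries, and 5 genes the reverse.

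No measure of where the reads fell passed the test after adjustment. The 100 most abundant genes took 17.8 ± 0.598% of D. melanogaster reads with Clontech and 17.9 ± 1.18% with SMART-seq2 (SD, n = 4 each, exact permutation test, p = 0.943). Alignments of reads without a unique place made up 10.1 ± 3.49% and 15.9 ± 0.843% (p = 0.0571, exact permutation test), alignments outside genes 9.66 ± 1.93% and 7.30 ± 1.09% (p = 0.0286, exact permutation test) and ambiguous alignments 2.05 ± 0.0771% and 2.28 ± 0.172% (p = 0.0571, exact permutation test). The smallest p that 4 against 4 libraries allow is 0.0286, and each of these last 3 measures had an adjusted p of 0.114. After adjustment over 6 measures, a single measure could not pass alone, however far apart its libraries lay. No conclusion is therefore drawn from the lack of a pass.

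The same genes were seen in different proportions. Of 6049 genes with at least 10 reads in at least 4 of the 8 libraries, 2099 differed between the protocols (34.7%, edgeR's quasi-likelihood test, Benjamini-Hochberg adjusted p under 0.05), 1269 of them higher in SMART-seq2 (21%) and 830 lower (13.7%). Differences of at least 2-fold were called for 285 genes higher (4.71%) and 332 lower (5.49%), and differences of at least 4-fold for 10 higher (0.165%) and 46 lower (0.76%). The median log2 fold change was 0.14. With TMM scaling, which moved all fold changes by −0.12 on the log2 scale, 883 genes were higher and 1020 lower, so that the share of calls that were higher went from 60.5 to 46.4%, and DESeq2 gave 976 and 1110. The balance of the directions therefore depends on the scaling, and group medians below are also given relative to the median of all genes. Without the 0% SMART-seq2 library 1457 genes were higher and 987 lower, and without the 20% Clontech library 1228 and 773. The 4 and the 4 libraries did not overlap for 2059 genes (34%).

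**Figure D1:**
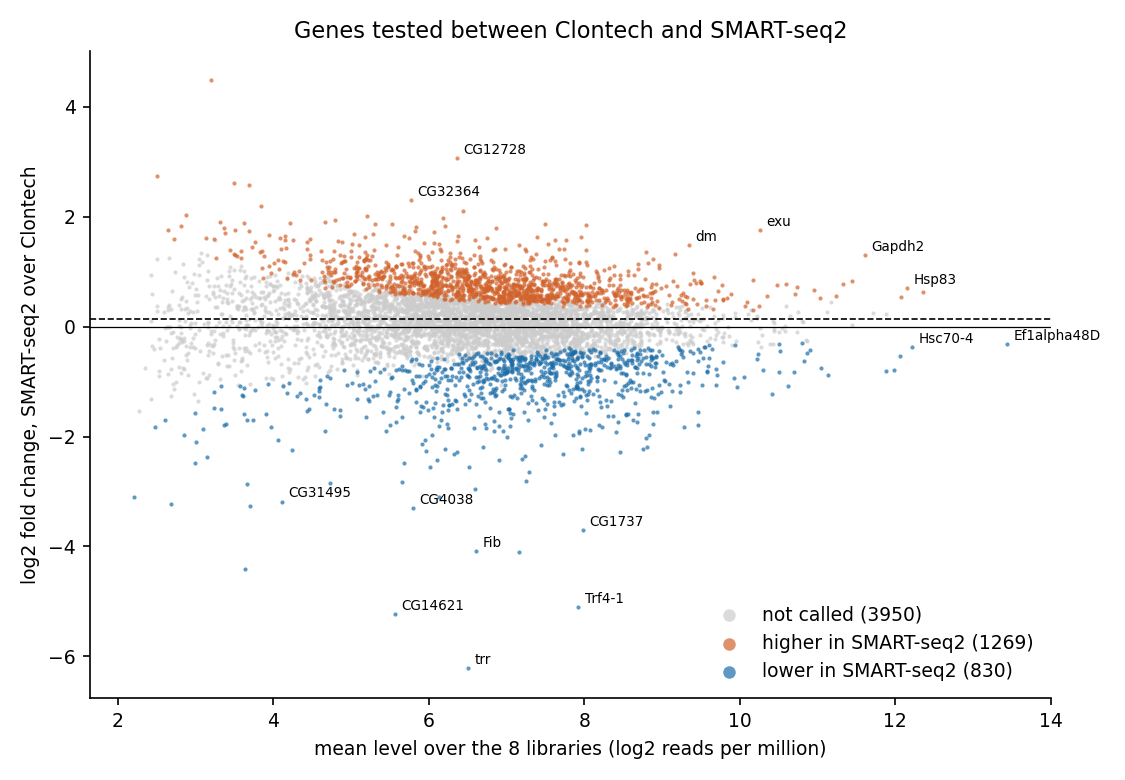
Mean level over the 8 libraries in log2 CPM (horizontal) against the log2 fold change of SMART-seq2 over Clontech (vertical) for the 6049 genes tested, 1 point each, with the dashed line at the median of 0.14. The largest differences point down, to a log2 fold change of −6.22 for trr, and the called genes are found at all levels.

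The largest losses in SMART-seq2 were those of trr, which encodes a histone H3 lysine 4 methyltransferase of the trithorax family. Its level was 183, 179, 225 and 121 CPM in the 0, 5, 10 and 20% Clontech libraries, and 1.63, 3.13, 0 and 4.58 in the SMART-seq2 libraries of the same order. The log2 fold change was −6.22 ± 0.40 (SE, edgeR, n = 4 each). The gene trr passed the minimum for testing only through its Clontech libraries and so had to differ, and no p-value is given. Trf4-1, a non-canonical poly(A) polymerase of the nucleus, had 386, 513, 559 and 419 CPM with Clontech and 8.15, 14.1, 16.7 and 15.4 with SMART-seq2. Its log2 fold change of −5.10 ± 0.23 had the smallest adjusted p of the named genes (2.19e-09, edgeR, n = 4 each). For both genes every SMART-seq2 library was far below every Clontech library, and separate ranges were a condition for naming them.

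CG14621, CG1737 and CG31495 were also far lower. CG14621 had 80.8 to 99.1 CPM with Clontech and 0 to 3.80 with SMART-seq2 (log2 fold change −5.24 ± 0.40, SE, edgeR, n = 4 each). CG1737 had 396 to 517 and 27.5 to 53.8 (−3.70 ± 0.21) and CG31495 had 19.5 to 39.0 and 1.62 to 5.15 (−3.18 ± 0.41). None of the ranges overlapped, which the naming rule required. CG14621 and CG31495 passed the minimum for testing only through their Clontech libraries and so had to differ, and no p-value is given for them.

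The nucleolar gene Fib, which encodes the methyltransferase fibrillarin that modifies ribosomal RNA, was 16.9-fold lower. It had 190, 190, 141 and 208 CPM with Clontech and 26.1, 6.25, 6.47 and 4.01 with SMART-seq2 (log2 fold change −4.08 ± 0.39, SE, edgeR adjusted p = 5.21e-06, n = 4 each). The 0% SMART-seq2 library was the highest of its set, and without it the log2 fold change was −5.01. CG4038, named Gar1 by RefSeq and a subunit of the particles that guide pseudouridylation, had 61.9 to 130 and 6.47 to 16.8 (−3.30 ± 0.33). Nopp140, a nucleolar phosphoprotein that binds such particles, had 678 to 798 and 131 to 217 (−1.97 ± 0.16).

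Among genes with at least 500 reads on average, the largest loss was 4.88-fold, for tlk. This kinase gene, whose product acts on chromatin assembly, had 540, 647, 683 and 463 CPM with Clontech and 126, 166, 63.1 and 123 with SMART-seq2 (log2 fold change −2.29 ± 0.23, SE, edgeR adjusted p = 7.40e-06, n = 4 each). Hrb87F, an hnRNP A-type RNA-binding protein, had 642 to 797 and 116 to 188 (−2.22 ± 0.18), and nocte, needed for entraining the circadian clock to temperature, had 570 to 877 and 116 to 189 (−2.18 ± 0.18). The histone acetyltransferase gene nej, the fly CBP, had 458 to 901 and 127 to 223 (−2.02 ± 0.21), and the corepressor gene Smr had 390 to 659 and 120 to 168 (−1.92 ± 0.18). In tlk, nocte, nej and Smr the 20% Clontech library was the lowest of the 4 Clontech libraries, and it still lay above every SMART-seq2 library.

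The largest gain among well-counted genes was that of CG12728. It had 14.2, 23.9, 15.5 and 15.9 CPM with Clontech and 161, 166, 109 and 146 with SMART-seq2 (log2 fold change 3.06 ± 0.23, SE, edgeR adjusted p = 4.90e-07, n = 4 each). CG32364, named tut by RefSeq and a partner of the germline differentiation factor Bam, had 12.1 to 23.4 and 61.0 to 129 (2.30 ± 0.30), and abo, a regulator of the histone genes, had 16.9 to 44.0 and 128 to 148 (2.10 ± 0.24). Gpi1, named PIG-Q by RefSeq and part of the enzyme that starts GPI-anchor synthesis, had 8.24 to 21.0 and 49.6 to 67.2 (2.01 ± 0.28). CG33217, CG11257, CG32221 and CG10927 followed with log2 fold changes of 1.98, 1.94, 1.90 and 1.88. Ranges that do not overlap were a condition for naming the genes of this paragraph.

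Among abundant transcripts the clearest gain was that of exu, whose product acts in the localization of bicoid mRNA. Its level was 535, 537, 590 and 591 CPM with Clontech and 1781, 1842, 1990 and 1970 with SMART-seq2 (log2 fold change 1.75 ± 0.11, SE, edgeR adjusted p = 9.44e-08, n = 4 each). The groups were far apart, and the 4 libraries of each protocol lay close together. The Myc gene dm had 388, 370, 394 and 215 against 948, 909, 1098 and 882 (1.49 ± 0.17), and without the 20% Clontech library, its lowest, the log2 fold change was 1.32. Pino had 237 to 259 and 605 to 684 (1.35 ± 0.12), and the catenin gene p120ctn 190 to 330 and 601 to 724 (1.22 ± 0.16). The germ cell repressor gene pgc had 297 to 397 and 631 to 1228 (1.33 ± 0.19), the highest value coming from the 0% SMART-seq2 library, without which the log2 fold change was 1.07.

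The 4 most abundant genes differed by less. Ef1alpha48D, a translation elongation factor, had a mean of 12349 ± 476 CPM with Clontech and 9900 ± 738 with SMART-seq2 (SD, n = 4 each, log2 fold change −0.32 ± 0.09, edgeR adjusted p = 0.0110). For Hsc70-4, a constitutive chaperone, the means were 5380 ± 317 and 4137 ± 276 (−0.38 ± 0.09, adjusted p = 0.00691, edgeR). For Hsp83, the fly HSP90, the Clontech libraries gave 3460 to 3485 CPM, and SMART-seq2 gave 4457, 6190, 5951 and 5945 (0.70 ± 0.11). The maternal thioredoxin gene dhd had 3572 to 4637 with Clontech and 9012, 5111, 5663 and 5632 with SMART-seq2 (0.62 ± 0.16). The 0% SMART-seq2 library was the lowest for Hsp83 and the highest for dhd, and without it the log2 fold changes were 0.80 and 0.41.

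**Figure D2:**
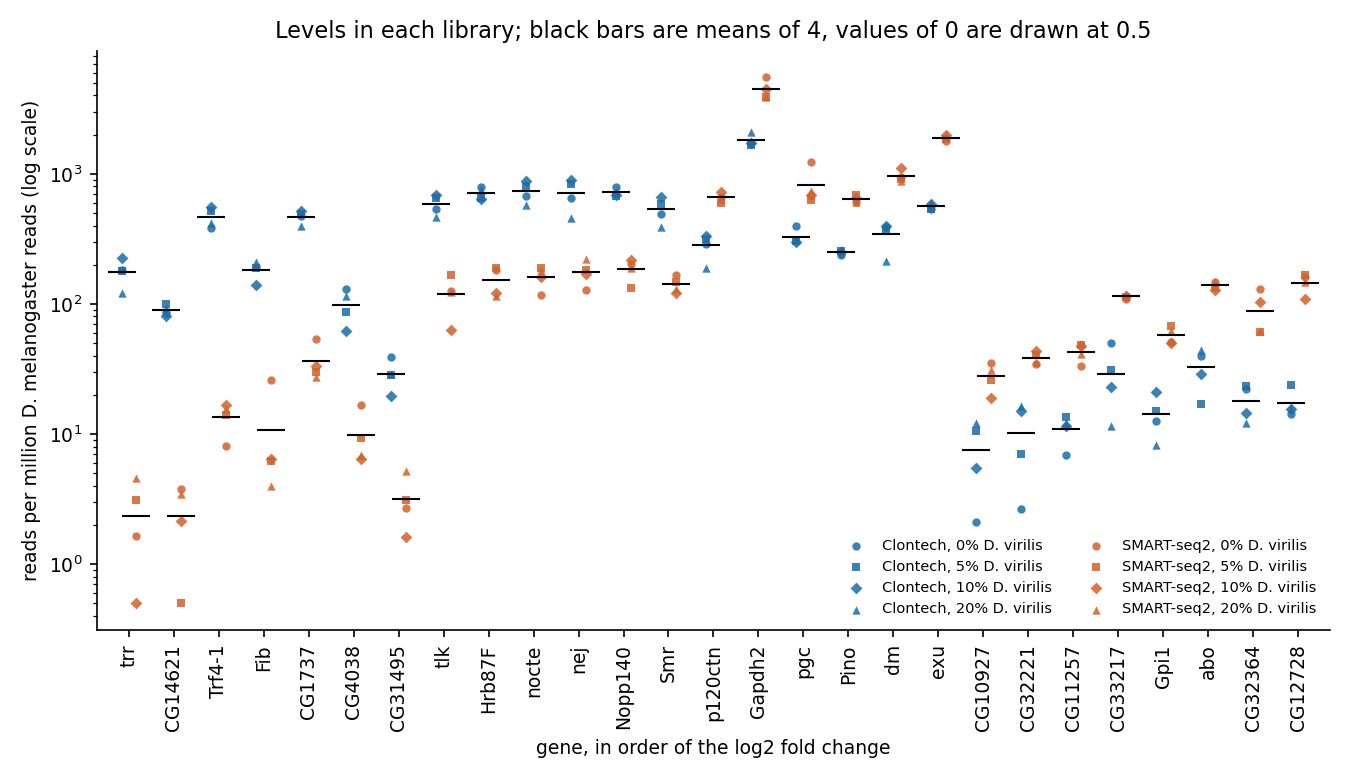
CPM on a log axis for the genes named for large differences, in order of the log2 fold change, 1 symbol per library with Clontech in blue and SMART-seq2 in orange. The 4 and the 4 libraries do not overlap for any of the genes drawn, which for the first part of the naming rule was required.

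Libraries outside the comparison placed the largest differences. Of the 46 genes at least 4-fold lower in SMART-seq2, the mean of the 4 TruSeq libraries was nearer to the Clontech mean for 46, and the mean of the 5 SMART-seq2 libraries with a 2.5-fold smaller tagmentation, made from another pre-amplification, was nearer to the SMART-seq2 mean for 46. For trr the means were 203 ± 14.6 CPM with TruSeq (SD, n = 4) and 3.96 in the diluted libraries, and for Trf4-1 they were 572 ± 7.53 and 9.96. The 10 genes at least 4-fold higher were divided in the same way, 10 nearer to Clontech in TruSeq and 10 nearer to SMART-seq2 in the diluted set. Some of the 46 and of the 10, such as trr and PIP5K59B, passed the minimum for testing only through the protocol where they were high. TotalScript, which also primes at the poly(A) tail and uses a transposase, lay nearer to Clontech for 31 and nearer to SMART-seq2 for 15 of the 46 lower genes, and nearer to SMART-seq2 for the 10 higher genes. The Clontech libraries shared cDNA reagents with TruSeq, and TruSeq used more RNA.

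The same order was seen over all 6049 genes. Pearson's r between libraries of log2 levels, with 1 CPM added, had a median of 0.972 between Clontech and TruSeq (0.958 to 0.989) and 0.891 between Clontech and SMART-seq2 (0.797 to 0.908). It was 0.960 among the Clontech libraries and 0.937 among the SMART-seq2 libraries (0.897 to 0.970), and 0.952 between SMART-seq2 and its 2.5-fold diluted form. Pairs of SMART-seq2 libraries with the 0% library had 0.897 to 0.905, and those without it 0.968 to 0.970. Between Clontech and SMART-seq2, pairs with the 0% SMART-seq2 library had 0.797 to 0.849, and the others 0.879 to 0.908. These are correlations across genes, which are not replicates. The Clontech, SMART-seq2 and TruSeq libraries held mixtures of the same RNAs, and the diluted libraries came from another pre-amplification.

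Genes that span more of the genome were lower in SMART-seq2. The tested genes with a RefSeq span, introns included, were divided into quintiles, from 370 to 1465 bases in the shortest to 7461 to 396036 bases in the longest. The median log2 fold change was 0.26, 0.35, 0.24, −0.02 and −0.31 from the shortest to the longest quintile. Higher calls made up 21.0, 32.2, 27.1, 14.6 and 10.4% of the genes of each quintile, and lower calls 4.77, 4.26, 6.63, 18.8 and 33.9%, against 21% and 13.7% of all genes. The median gene of each quintile had 92.4, 156, 209, 283 and 268.5 reads a library. The part of these read numbers in the shares of calls was not tested. Of the 46 genes at least 4-fold lower, 29 were in the longest quintile. These include Ac13E, Appl and trr, which passed the minimum for testing only through their Clontech libraries. Across 5971 genes Spearman's rho of the log2 fold change with the span was −0.330, as a description with no test. With TMM scaling higher calls made up 14.6, 23.1, 18.7, 9.97 and 6.78% and lower calls 7.11, 6.10, 9.49, 23.1 and 38.1%. With DESeq2 the lower calls of the second and the third quintile numbered 86 and 128, against 51 and 79.

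The trend was not even along its range, and single libraries had trends of their own. In the 0% SMART-seq2 library the median log2 ratio to the other 3 libraries of the protocol was 0.59 in the shortest quintile and −0.38 in the longest, and in the 20% Clontech library it was 0.37 and −0.28. Without the 0% SMART-seq2 library, lower calls in the shortest quintile went from 57 to 138 and the median of that quintile relative to all genes went from 0.12 to −0.04, while higher calls in the longest quintile but one went from 174 to 259. Lower calls in the shortest quintile were 32 without the 20% Clontech library and 36 without the 10% SMART-seq2 library, and its higher calls went from 251 to 165 and 149 without the 5% or the 10% Clontech library. The longest quintile stayed below the rest, at −0.31 relative to all genes without that library and −0.52 without the 20% Clontech library, against −0.44 with all 8. Lower calls in the longest quintile numbered 405 with all libraries, 416 without the 0% SMART-seq2 library and 419 without the 20% Clontech library. The part of the library differences in these values was not tested.

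Genes of the small chromosome 4 were more often called higher than genes of the other chromosomes. On chromosome 4, 23 of 48 tested genes were higher in SMART-seq2 and 1 was lower (47.9 and 2.08%, against 21% and 13.7% of all genes), with a median log2 fold change of 0.58, which is 0.44 above that of all genes. That relative median was 0.46 without the 0% SMART-seq2 library, 0.31 without the 20% Clontech library and 0.44 with TMM scaling. The genes of chromosome 4 were long, with a median span of 9513 bases against 2664 to 3380 bases for the other arms. In the longest quintile the median log2 fold change was 0.48 for the 30 genes of chromosome 4, −0.29 for the 891 genes of chromosomes 2 and 3 and −0.45 for the 273 genes of the X.

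Chromosome 4 genes of several functions moved this way, named here after their values were seen. ATPsyn-beta, a subunit of the mitochondrial ATP synthase, had 1493, 1460, 1484 and 1682 CPM with Clontech and 2559, 2334, 2374 and 2435 with SMART-seq2 (log2 fold change 0.66 ± 0.10, SE, edgeR adjusted p = 0.000242, n = 4 each). CaMKII, a calcium-dependent kinase, had 121 to 157 and 220 to 274 (0.82 ± 0.15), and CG2316 had 164 to 249 and 303 to 487 (1.03 ± 0.18). The single lower gene was plexA, a semaphorin receptor, with 366 to 651 and 324 to 406 (−0.53 ± 0.17). The levels of plexA overlapped between the protocols and it was not called without the 0%, 5% or 10% Clontech library, while those of the other named genes of this chromosome did not overlap.

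The X chromosome differed from the large autosomes mainly in its large losses. It had 25 of the 46 genes at least 4-fold lower among 1074 tested, while chromosomes 2 and 3 together had 21 among 4849. Among the 25, Ac13E, Appl, CG14621, CG1840, CG43672 and trr passed the minimum for testing only through their Clontech libraries and so had to differ. The same held for CG12592, CG31495 and SNCF among the 21. Its lower calls made up 17.7% of its genes, against 11.4 to 13.8% on the 4 large autosomal arms, while its higher calls, at 20.5%, lay within the 19.3 to 23.1% of those arms. Its median was 0.05 below that of all genes, and without both 0% libraries the relative median was −0.0041. Of the 25 genes, 18 were in the longest quintile of spans. Besides trr, CG14621, Trf4-1 and CG1737, the 25 included Cdc42 and dlg1, named after their values were seen. Of these, trr, Trf4-1 and dlg1 lay in that quintile. CG14621, CG1737 and Cdc42 lay below it, with spans of 3582, 4932 and 2848 bases. The small GTPase gene Cdc42 had 246 to 291 CPM with Clontech and 24.3 to 64.6 with SMART-seq2. The polarity gene dlg1 had 80.8 to 221 and 9.71 to 37.5. Both had ranges that did not overlap.

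**Figure D3:**
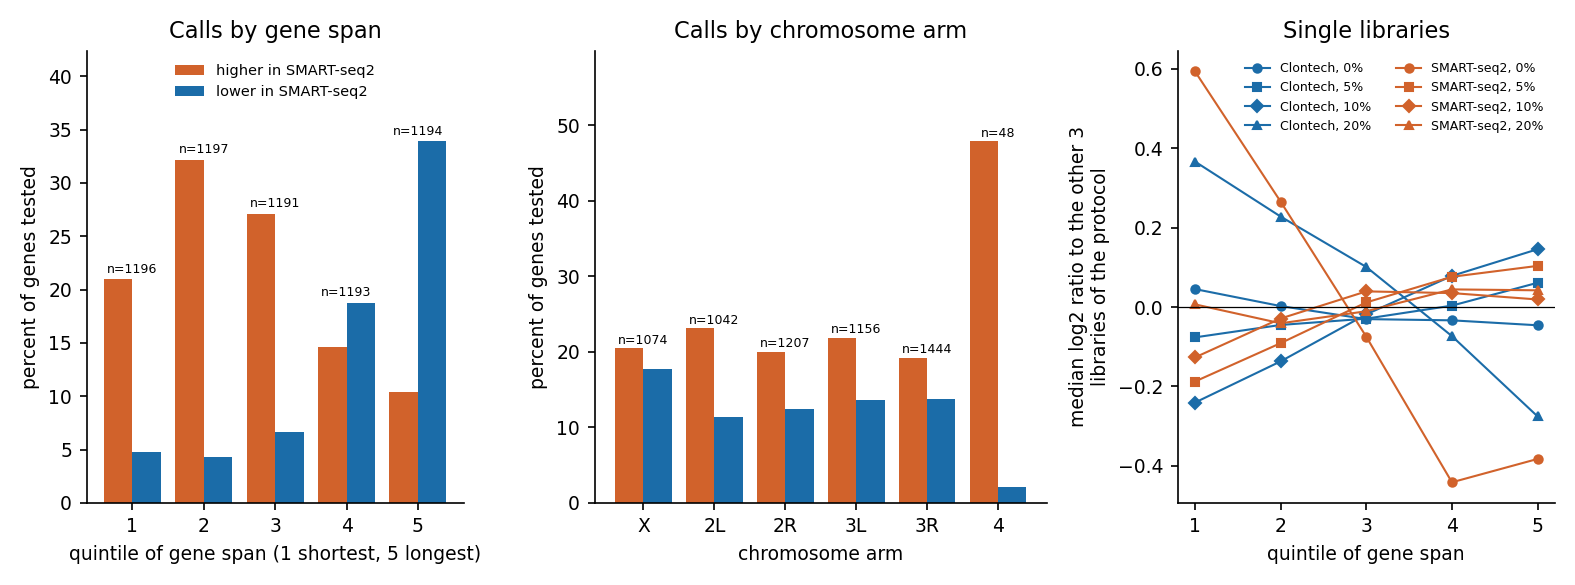
Percent of tested genes higher (orange) and lower (blue) in SMART-seq2 by quintile of gene span (left) and by chromosome arm (middle), and the median log2 ratio of each library to the other 3 of its protocol by quintile of span (right). Lower calls reached 33.9% in the longest quintile, higher calls 47.9% on chromosome 4, and the 0% SMART-seq2 and 20% Clontech libraries fell from 0.59 and 0.37 in the shortest quintile to below 0 in the longest.

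Level had a weaker bearing on the direction. From the lowest to the highest quintile of mean level the median log2 fold change went from 0.24 to −0.03, higher calls from 14.8 to 21.1% and lower calls from 6.03 to 25.8%. The number of reads behind a test rose with it, and its part in the share of calls was not tested.

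Genes known for very long mRNAs were lower almost throughout. Of 34 such genes, 23 were tested, and 0 were higher and 19 lower (0 and 82.6%, against 21% and 13.7% of all genes), with a median log2 fold change of −1.41 against 0.14 for all genes. The spectrin genes kst, alpha-Spec and beta-Spec, which build the membrane skeleton, had log2 fold changes of −2.25, −1.78 and −1.41, HERC2, a giant ubiquitin ligase, −2.27, and shot, a linker of actin and microtubules, −1.49. The most abundant was kis, a chromatin remodeler of the trithorax group, with 720, 859, 1075 and 587 CPM with Clontech and 440, 426, 290 and 394 with SMART-seq2 (log2 fold change −1.06 ± 0.18, SE, edgeR adjusted p = 0.000600, n = 4 each). Nipped-B, a cohesin loader, had a log2 fold change of 0.39 and Nipped-A one of −0.10, and neither passed the test. Over the alternatives 16 to 21 members were lower and 0 higher.

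Among chromatin remodelers and trithorax proteins the calls were also on the lower side. Of 24 members, 0 were higher and 16 lower (0 and 66.7%, beside 21% and 13.7% of all genes), with a median of −0.80, and 13 to 17 were lower over the alternatives. The SWI2-type ATPase gene dom had 998, 1277, 1340 and 765 CPM with Clontech and 309, 318, 276 and 362 with SMART-seq2 (log2 fold change −1.79 ± 0.17, SE, edgeR adjusted p = 4.99e-06, n = 4 each). The Brahma complex divided by member, with dalao, osa, mor and brm at −1.82, −1.76, −1.17 and −0.68, all called, and Bap60, Snr1 and Bap55 at 0.06, 0.20 and 0.27, none called. The list shares 4 genes with the list of very long mRNAs, which are 16.7% of its tested members, and 15 of its 24 members were in the longest quintile of spans. It was written after the fit had been seen, as were those of nucleoporins, splicing factors, proton pump, glycolysis, cell cycle and replication. Their shares are descriptions and no evidence about the members as a set.

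Genes of the nuclear pore had calls on both sides. Of 24 nucleoporin genes 3 were higher and 7 lower, which is 12.5 and 29.2% where all genes had 21% and 13.7%, with a median of −0.08. Nup358, the cytoplasmic filament protein, had 815, 1031, 1205 and 828 CPM with Clontech and 187, 342, 235 and 326 with SMART-seq2 (log2 fold change −1.83 ± 0.19, SE, edgeR adjusted p = 9.81e-06, n = 4 each). Nup153 and Mtor of the nuclear basket, Nup214 and Nup98-96 had −1.60, −1.30, −1.21 and −1.15. The membrane nucleoporin gene Ndc1 had 106 to 159 and 182 to 230 (0.68 ± 0.17), and Nup43 and Nup107 of the scaffold had 0.51 and 0.50. Under TMM scaling, and without the 0% or the 5% Clontech library, 1 member was higher.

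Splicing factors of the hnRNP and SR families were lower where they differed. Of 14 tested members 0 were higher and 6 lower (0 and 42.9%, all genes 21% and 13.7%), with a median of −0.35. Besides Hrb87F, the lower members included the SR protein genes x16 and SF2, at −1.93 and −0.59, and the hnRNP genes glo and Hrb98DE, at −0.73 and −0.58. Hrb27C, the most abundant, had 1669 to 2241 CPM with Clontech and 1481 to 1806 with SMART-seq2, which overlap (log2 fold change −0.25 ± 0.12, adjusted p = 0.118, edgeR). With TMM scaling its log2 fold change was −0.37 with an adjusted p of 0.0390 (edgeR). SC35 had 0.36 and did not pass.

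Of the subunits of the vacuolar proton pump, 17 of 33 were tested, and 12 were higher and 0 lower (70.6 and 0%, all genes 21% and 13.7%), with a median log2 fold change of 0.67, and 11 to 13 were higher over the alternatives. This list was written after the fit had been seen, so its shares are a description only. Vha100-2, a subunit of the membrane sector, had 242, 280, 299 and 303 CPM with Clontech and 469, 710, 706 and 605 with SMART-seq2 (log2 fold change 1.15 ± 0.15, SE, edgeR adjusted p = 7.77e-05, n = 4 each). VhaPPA1-1, Vha68-2 and VhaAC45 had 1.01, 0.90 and 0.86. The most abundant, Vha16-1, which forms the rotor ring, had 1173 to 1489 and 1221 to 1765, which overlap (0.07 ± 0.13), and it is −0.05 with TMM scaling.

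Enzymes of glycolysis were also higher where they differed. Of 11 tested members 7 were higher and 0 lower (63.6 and 0%, all genes 21% and 13.7%), with a median of 0.37 and 5 to 8 higher over the alternatives. Gapdh2 had 1733, 1668, 1727 and 2106 CPM with Clontech and 5536, 3918, 4501 and 3887 with SMART-seq2 (log2 fold change 1.30 ± 0.13, SE, edgeR adjusted p = 6.18e-06, n = 4 each). Pgi, the isomerase that follows hexokinase, had 0.93 and Pglym78 0.82. Hex-A and Pfk, which catalyse early phosphorylations, had −0.11 and 0.03 and did not pass. The other Gapdh gene, Gapdh1, had 0.37, and reads that the 2 copies share could have been left out by the counting.

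Maternal factors of the body axes and germ plasm were called in both directions. Of 24 tested members 7 were higher and 7 lower (29.2% each, against 21% and 13.7% of all genes), with a median of 0.04, and without the 10% Clontech library 3 were higher. Beside exu and pgc, the germ plasm organizer osk had 1142, 1202, 1189 and 1038 CPM with Clontech and 1689, 2120, 2029 and 1954 with SMART-seq2 (log2 fold change 0.77 ± 0.11, SE, edgeR adjusted p = 0.000164, n = 4 each), and bcd, the anterior morphogen, had 0.46. The translational repressor gene pum had 384 to 715 and 159 to 240 (−1.59 ± 0.19), and the Toll ligand and receptor genes spz and Tl had −1.24 and −0.83. The germ plasm genes tud and vas had −0.68 and −0.61, against the direction of osk. Of the 15 maternal markers 6 were higher and 3 lower (40.0 and 20.0%, beside the same shares of all genes), with 3 higher under TMM scaling or without the 5% or the 10% Clontech library. Among them smg, a repressor of translation, had 2388 to 3159 and 1100 to 1844 (−0.89 ± 0.15).

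Few zygotic patterning genes passed the minimum for testing, and the part of depth in this was not tested. Of 19 gap and pair-rule genes 3 were tested, and the gap gene hb had 231 to 312 CPM with Clontech and 148 to 202 with SMART-seq2 (log2 fold change −0.67 ± 0.16, SE, edgeR adjusted p = 0.00456, n = 4 each). The most abundant, cad, a posterior determinant that is also maternal, had 415 to 517 and 515 to 656, which overlap (0.28 ± 0.13, adjusted p = 0.114, edgeR). Of 6 tested early zygotic markers hb was the only one called. The maternal share of the hb mRNA was not tested. Of 22 short intronless early zygotic genes 5 were tested and none was called, and bnk, which acts in cellularization, had 11.0 to 34.3 and 11.4 to 27.2.

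Cell cycle and replication genes had calls in both directions. Of 24 cell cycle regulators 8 were higher and 4 lower (33.3 and 16.7%, median 0.02), and of 19 replication origin and MCM genes 5 were higher and 3 lower (26.3 and 15.8%, median 0.09). The shares of all genes were 21% and 13.7%, which the replication genes lay near. Without the 20% SMART-seq2 library 2 cell cycle regulators were lower, and without the 0% or the 10% Clontech library 3 replication genes were higher. The mitotic cyclin gene CycB had 4718 to 5302 CPM with Clontech and 2679 to 3284 with SMART-seq2 (log2 fold change −0.79 ± 0.10, SE, edgeR adjusted p = 5.38e-05, n = 4 each). The gene rap, named fzr by RefSeq and an activator of the complex that degrades cyclins, had 127 to 160 and 311 to 407 (1.39 ± 0.15), and the small Cdk-binding protein genes Cks85A and Cks30A had 1.30 and 1.17. Within the MCM helicase, Mcm7 had 446 to 500 and 295 to 315 (−0.62 ± 0.12) and Mcm5 −0.39, while Mcm3 had 0.93. Psf2 had 18.5 to 35.2 and 32.4 to 84.2, which overlap, with a log2 fold change of 1.00 ± 0.30 that passed with all libraries (adjusted p = 0.0186, edgeR) and missed the threshold without the 0% or the 10% Clontech library (0.0591 and 0.0575).

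Proteasome, chaperone and cytoskeletal genes differed in smaller steps. Of 31 tested proteasome subunits 8 were higher and 1 lower (25.8 and 3.23%, median 0.22), the higher share near the 21% of all genes and the lower share under their 13.7%, with 2 higher and 3 lower under TMM scaling and 5 lower without the 0% SMART-seq2 library. Without the 0%, 5% or 10% Clontech library 2, 3 and 2 were higher, and without the 20% SMART-seq2 library 4. Prosbeta3, a subunit of the core particle, had 221 to 333 CPM with Clontech and 403 to 604 with SMART-seq2 (0.94 ± 0.17), Rpn8 of the lid had 258 to 352 and 185 to 215 (−0.55 ± 0.14), and Rpn2 had a level in the 0% SMART-seq2 library of 340 against 617 to 670 in the other 3 (−0.12 ± 0.18). Of 14 tested chaperone genes 2 were higher and 5 lower (14.3 and 35.7%, all genes 21% and 13.7%, median −0.03). The lower members were 3 without the 0%, 5% or 10% Clontech or the 10% SMART-seq2 library. The small heat shock gene Hsp26 had 1512 to 2160 and 2477 to 4236 (0.77 ± 0.16), while the co-chaperone gene DnaJ-1 had 426 to 475 and 247 to 318 (−0.68 ± 0.13). Of 8 tested actins and tubulins 3 were higher, 5 without the 0% SMART-seq2 library, and 0 lower (37.5 and 0%, all genes 21% and 13.7%, median 0.31). The maternal tubulin gene alphaTub67C had 749 to 931 and 1401 to 1609 (0.85 ± 0.12), and Act5C had 3027 to 3861 and 3980 to 4176, which did not overlap, with an adjusted p of 0.102 (edgeR).

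Histone genes could be compared only for the variants. None of 111 replication-dependent histone genes was tested, and 109 had no read in any of the 8 libraries. The mRNAs of these genes end in a stem-loop in place of a poly(A) tail, and the gene copies are nearly identical. The part of either in the missing reads was not tested. Of 5 variant histone genes 1 was lower, 2 without the 0% SMART-seq2 library: His3.3A had 221 to 349 CPM with Clontech and 105 to 217 with SMART-seq2 (log2 fold change −0.86 ± 0.21, SE, edgeR adjusted p = 0.00577, n = 4 each). His2Av had 940 to 1225 and 1089 to 1731, which overlap (0.19 ± 0.15).

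**Figure D4:**
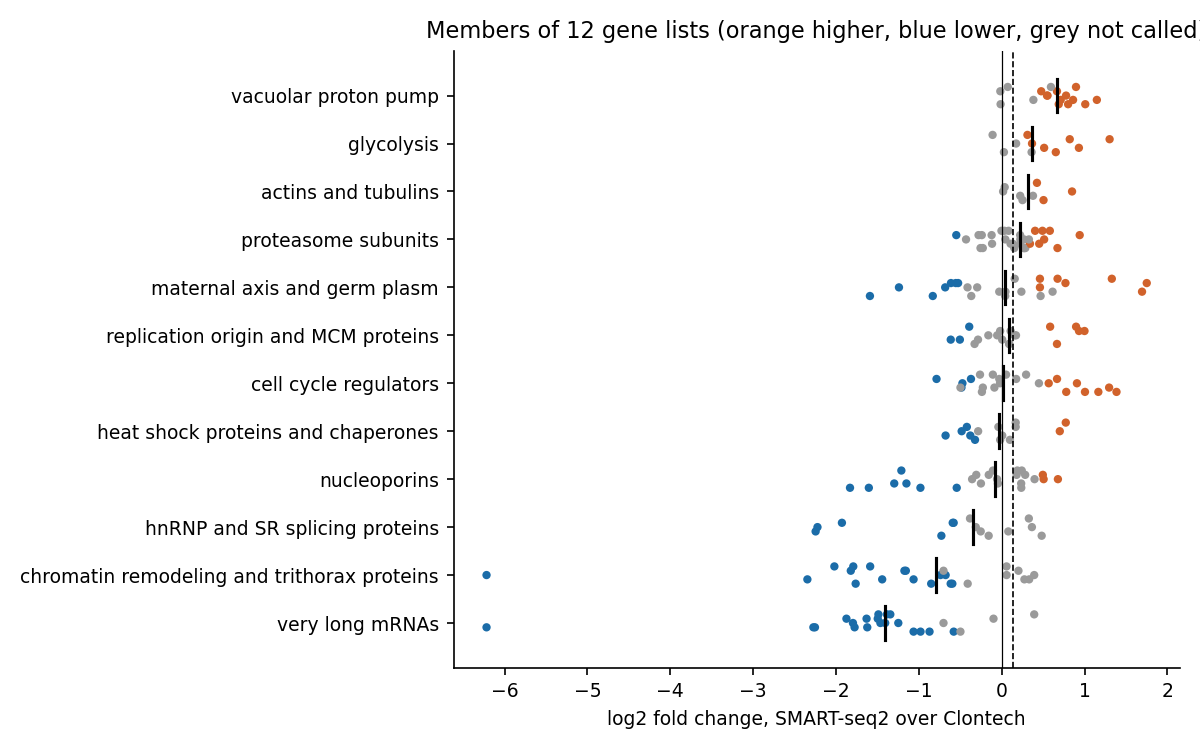
Log2 fold change of SMART-seq2 over Clontech for the tested members of 12 gene lists, 1 point per gene, with the median of each list as a black bar and that of all genes as the dashed line at 0.14. Medians run from 0.67 for the vacuolar proton pump to −1.41 for the very long mRNAs, and several lists hold called members on both sides.

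Counting set limits to single genes. Reads were counted without strand, and trr, CG14621, CG4038, nocte, Nopp140, Smr, exu, dm and pgc overlap other annotated genes in the RefSeq spans, as do kis, pum, Hsp83, Ndc1, Prosbeta3, Rpn8, Vha100-2, CG11257 and His3.3A, so that part of their reads may have been left out as ambiguous or belong to the neighbour. A gene could pass the minimum through the 4 libraries of 1 protocol alone, as trr, CG14621, CG31495 and Appl did through Clontech. It then had to differ, so that a p-value for such a gene supports nothing, and these genes could not be tested without any 1 of those libraries. Such genes are among the calls counted for lists, spans and chromosomes, as trr is for the very long mRNAs and for the chromatin proteins.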

How the data were processed

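Libraries were grouped by the protocol in their labels. The authors sequenced single-end reads of 50 bp, mapped the reads with STAR to both FlyBase genomes together and counted them per gene with HTSeq, without strand, and they deposited the raw counts, both complete and randomly sampled down so that libraries have equal depth. Although named FPKM in the deposited tables, the values are whole numbers and were treated as counts. The submitters' processing notes also name CASAVA 1.8, while the methods name the control and real-time analysis software of the sequencer for base calling. Per the methods, SMART-seq2 cDNA had 18 cycles of pre-amplification and 6 of enrichment.

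From the sampled counts, D. melanogaster genes with at least 10 reads in at least 4 of the 8 libraries were tested with edgeR 4.0.16 in R 4.3.3 (glmQLFit and glmQLFTest, library size the D. melanogaster total, no covariate, Benjamini-Hochberg over all genes tested). The SE of a log2 fold change was its size over the square root of F. Library measures were compared by exact two-sided permutation tests. The work also used Python 3.11.15 with matplotlib 3.10.9, pandas 2.3.3, numpy 2.4.6 and scipy 1.17.1. The test was run on simulated counts before use.

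Named genes were, in each direction, the 8 with the largest change among called genes with separate ranges and a mean of at least 50 reads in the higher protocol, and the 6 with the largest change among called genes with a mean of at least 500 reads. The 4 most abundant genes, and of each list the called member with the largest rise and fall and the most abundant member, were added. The comparison, the members and the lists were chosen with earlier results of these data known. The lists of the vacuolar proton pump, nucleoporins, glycolysis, hnRNP and SR proteins, replication, cell cycle and chromatin proteins were written after the gene-wise fit had been seen, so lists have counts and medians and no test.

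Symbols, chromosome arms and gene spans came from RefSeq for Release 6, which matched 13643 of 13793 gene names. The files use an earlier FlyBase release, so no coordinates are given. Transcript length and GC content were not used here, and the design's length groups were therefore made from gene span. Ribosomal protein, mitochondrial genome and snoRNA genes are not analysed here. Some genes that meet the naming rule are not reported here. Alternatives were TMM scaling, DESeq2 1.42.0, no filter on low counts, a mean of at least 20 reads, full depth, the mixture as a block, all 16 libraries of experiment 2 and each library left out. The groups of lists, spans and chromosomes under every setting, and leaving out both 0% libraries, were alternatives chosen after seeing the data.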

Additional observations from a re-analysis of the deposited data

Results flagged for a closer look

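In 12 of 134 sets of 4 libraries, a single library lay so far from the other 3 that its gap took most of the range of the set. Chance alone gives about 1 in 20 for a single set. The sets come from the same 8 libraries and are not independent, so 12 of 134 cannot be set against that rate. The values below are the gap of the single library as a share of the range. The 0% SMART-seq2 library stood out in 6 sets. It was high for the share of reads on the 100 most abundant genes (19.6% against 17.2 to 17.3%, gap 0.953), Fib (26.1 against 4.01 to 6.47 CPM, 0.888), His2Av (1731 against 1089 to 1167, 0.879) and dhd (9012 against 5111 to 5663, 0.858), and low for Hsp83 (4457 against 5945 to 6190, 0.858) and Rpn2 (340 against 617 to 670, 0.840).

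The 20% Clontech library stood out in 4 sets. It was high for the share of alignments outside genes (12.5% against 8.54 to 8.86%, gap 0.920) and for Gapdh2 (2106 against 1668 to 1733 CPM, 0.851), and low for dm (215 against 370 to 394, 0.870) and smg (2388 against 3046 to 3159, 0.852). The 0% Clontech library was high for pgc (397 against 297 to 310, 0.864) and for Hsp83, where the 4 values lay between 3460 and 3485 and the gap of 0.908 is one within a very narrow range.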

How the results depend on the processing

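The 61 genes that meet the naming rule were tested in 955 combinations of gene and alternative. They kept their direction and their side of the threshold in 942 of these, and 0 of the 53 called genes turned. Of the 61, 28 were named for the size of their change in these same libraries, and the alternatives refit the same reads. The count therefore says little about genes not chosen in this way. Ef1alpha48D missed the threshold without the 20% SMART-seq2 library (adjusted p = 0.0520, edgeR) and Psf2 without the 0% or 10% Clontech library or both 0% libraries, while Act5C, Hrb27C and cad passed it under 2, 4 and 3 alternatives. With 1 library left out, 871 to 1457 genes were higher in SMART-seq2 and 638 to 987 lower, the lowest without the 10% Clontech library and the highest without the 0% SMART-seq2 library. The coefficient of variation was then 13.6 to 18.9% for Clontech and 12.4 to 26.7% for SMART-seq2. All 16 libraries of experiment 2 gave 1641 higher and 1025 lower, full depth 1305 and 845, no filter 1208 and 856 of 7963, a mean of at least 20 reads 1252 and 817, and without both 0% libraries 1327 and 954. All 883 genes called higher with TMM scaling and 830 of the 1020 called lower were also called, in that direction, without it.

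With the mixture as a replicate block, 1199 genes were higher and 867 lower. The mixtures did not pair the libraries: the deviations of libraries with the same mixture from their group means correlated at 0.05, 0.10, 0.21 and −0.21 over 6049 genes for 0, 5, 10 and 20%, and the highest of the 16 pairs was the 0% SMART-seq2 with the 20% Clontech library (0.39).

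The reads on D. melanogaster genes, 1747575 to 2008297 a library, left 7744 genes untested. With 4 technical libraries a protocol and 1 source of RNA, spread between embryos was not measured.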

Other observations

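A pair of genes for kinases that make the same membrane lipid, phosphatidylinositol 4,5-bisphosphate, had levels in opposite order. The gene sktl had 225, 288, 300 and 241 CPM in the 0, 5, 10 and 20% Clontech libraries and 27.2, 41.2, 36.7 and 45.2 in the SMART-seq2 libraries (log2 fold change −2.81 ± 0.19, SE, edgeR adjusted p = 1.80e-07, n = 4 each). PIP5K59B had 0, 1.49, 0.998 and 0 with Clontech and 23.4, 8.86, 15.6 and 15.4 with SMART-seq2. It passed the minimum for testing only through its 4 SMART-seq2 libraries and so had to differ, and no test is given. TruSeq gave means of 274 ± 11.3 and 1.51 ± 0.613 (SD, n = 4), and TotalScript gave 89.9 and 28.3. Both genes were noticed in the data.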
